A study of Rattus norvegicus with 28 samples.

Results

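The terminal ileum of 3-day-old rat pups raised on formula with repeated hypoxia was compared with the ileum of age-matched breast-fed pups. The comparison used the 3 arrays titled as formula-fed with hypoxia on day 3 and the 3 titled as breast-fed on day 3, which are 6 of the 28 arrays of the series, and all 8740 non-control probe sets of an Affymetrix rat array. The pups are used to model necrotizing enterocolitis, in which the bowel of the premature infant becomes inflamed. Pups of the treated group were fed formula and exposed to hypoxic stress 3 times a day, and pups of the control group were fed by their mothers without that stress. Formula and hypoxia were given together in all treated pups, so the effects of diet and of hypoxia cannot be told apart. The labels give the tissue, its storage in RNAlater and 1 pup per array, and name no strain, sex or litter. The other 22 arrays, from both regimens on days 1, 2 and 4 and from unfed newborns, entered the model for the spread of each probe set and for the comparison across days. p-values therefore measure the spread between single pups of a group.

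The small bowel of a newborn rat lives on milk fat and lactose, and its epithelium, immune cells and muscle are still maturing. Mucosal mast cells lie between and below the epithelial cells and store chymases, serine proteases that loosen epithelial junctions when they are released. Immediate early genes encode transcription factors and short-lived RNA-binding proteins whose transcripts rise within minutes of growth factor, stress or cytokine signals, without new protein synthesis. The terminal ileum also takes up bile acids, and nuclear receptors there set the levels of enzymes and transporters that handle bile acids, sterols and foreign compounds.

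The arrays had the profile of small bowel. Enterocyte markers were abundant in both groups, with mean signals (quantile normalised intensities) of 6922 in breast-fed and 7219 in treated pups for Fabp2, the intestinal fatty acid binding protein, and of 308 and 426 for Lct, lactase. Fabp6, the ileal bile acid binding protein, had mean signals of 822 and 1321, and Slc10a2, the ileal bile acid transporter that appears at weaning in rats, 32.3 and 26.5. Breast-fed replicate 3 stood apart. Of 754 abundant probe sets, with a median above 500 over the remaining arrays, 69 were lost on it, with a signal over 16-fold below that median, against 0 or 1 on the other 5 day 3 arrays. Its median correlation with the other arrays was 0.883, against 0.913 to 0.953 for 26 arrays that had lost at most 2. Every result below was therefore also computed without it. The 3′ to 5′ ratio of beta-actin, a sign of RNA integrity, was 1.2 to 2.42 in breast-fed and 1.17 to 2.06 in treated pups, so the groups overlapped.

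Formula and hypoxia changed 97 of 5244 probe sets tested on day 3 (1.85%; limma, Benjamini-Hochberg adjusted p under 0.05), 46 higher and 51 lower. They belong to 79 named genes, and 11 of the probe sets have no single gene symbol. At an unadjusted p under 0.05 there were 842 probe sets (16.1%). The change was more than 2-fold in 93 of the 97, and in 95 of them the 3 treated arrays did not overlap with the 3 breast-fed arrays. The median standard error of a log2 change was 0.33. With 1 probe set per gene, 31 of 3185 genes were higher (0.973%) and 32 lower (1.00%), while 284 (8.92%) had all 3 treated arrays above, and 332 (10.4%) all 3 below, the 3 breast-fed arrays.

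Without breast-fed replicate 3 the number of changed probe sets fell to 36 (0.686%), 19 higher and 17 lower. Of the 97, 35 passed again and 62 did not, and all 97 kept their direction. Of the 69 probe sets that this array had lost, 1 passed as higher, Gstp1. Their median log2 change was 1.63 with the array and -0.10 without it. Leaving out formula and hypoxia replicate 1 gave 30 changed probe sets. Breast-fed replicate 3 is the day 3 array of the later of 2 runs of accession numbers, and breast-fed replicates 2 and 3 share a number format that differs from that of the treated arrays. With the run as a term 40 probe sets passed, with the number format as a term 28, and without both of these breast-fed arrays 8. The share of rises depended on the scaling. It was 47.4% with quantile normalisation, 63.2% (43 higher, 25 lower) with the deposited scaling, where the median of all genes was 0.14, and 28.6% (28 higher, 70 lower) with a common array median, where it was -0.14. Named genes are those whose change passed with and without breast-fed replicate 3, up to 15 in each direction. Members of 44 gene lists that passed with all arrays, and Ralgds, which lost much of its change without that array, were added. Together these were 48 probe sets, of which 21 (8 higher, 13 lower) also passed when any 1 of the 6 arrays was left out. For genes of the first kind, passing without breast-fed replicate 3 was part of the choice, and no such count was made over all 97. The lists were chosen with earlier results of these data known, so counts of their members beside all genes are descriptions only.

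**Figure D1:**
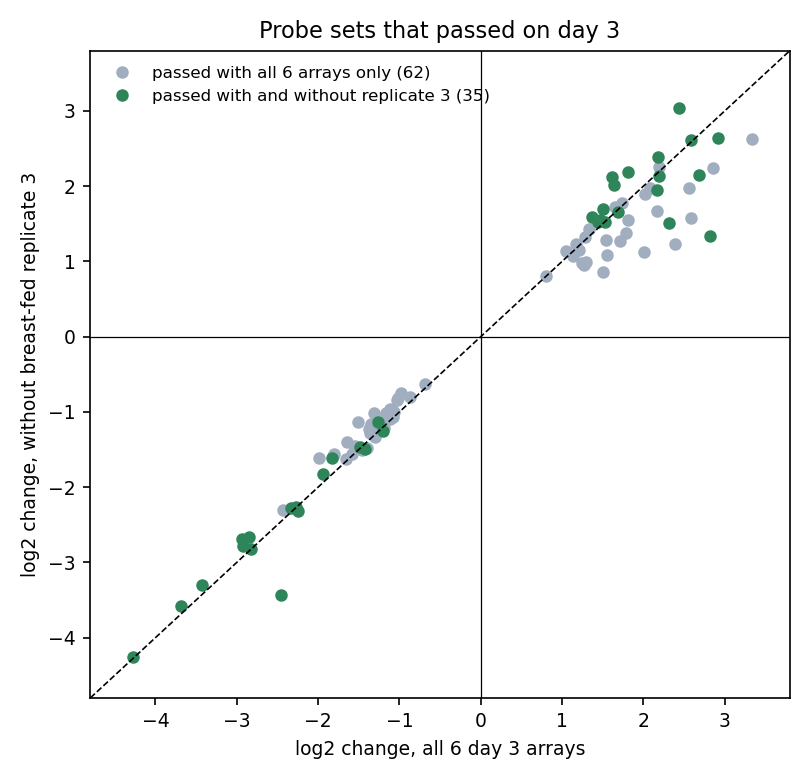
Log2 change of each of the 97 probe sets that passed on day 3, with all 6 day 3 arrays (x axis) and without breast-fed replicate 3 (y axis). The dashed line marks equal values, and all 97 points lie in the quadrants of equal sign, with several rises well below the dashed line.

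The deepest falls were those of chymases on the mast cell list. Mcpt4, a chymase of mucosal mast cells, had signals of 186, 289 and 244 in breast-fed replicates 1 to 3 and of 1.78, 6.25 and 6.21 in treated replicates 1 to 3. All treated values lie below the pseudocount of 8 that was added before taking logs, so the fitted fold of 19.4 lower (95% confidence interval 9.94 to 38.0, limma adjusted p = 1.42e-05) is set by it. The log2 change of -4.28 became -5.23 with a pseudocount of 2 and -2.87 with 32. Vch, vascular chymase, gave 320, 501 and 509 in breast-fed pups against 16.7, 49.5 and 20.5, which is 12.9-fold lower (6.12 to 27.1, adjusted p = 0.000507). The signals of Mcpt1, another mast cell chymase, were 564, 914 and 1195 against 43.3, 124 and 201, or 7.66-fold lower (3.74 to 15.7, adjusted p = 0.00221). For all 3 chymases the lowest breast-fed pup stood well above the highest treated pup, and each passed without any 1 of the 6 arrays.

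Another member of the family moved the other way. Mcpt1l1 had 39.9, 397 and 294 in breast-fed and 821, 610 and 488 in treated pups, 3.51-fold higher (1.78 to 6.94, adjusted p = 0.0485). Breast-fed replicate 1 set much of this distance, and the other breast-fed pups lay nearer to the treated ones. Without that array the log2 change was 0.86 in place of 1.81 and did not pass (adjusted p = 0.153), nor did it pass when any 1 of the treated arrays was left out. The probe set for Mcpt4 carries the maker's suffix for sequence families, and cross-hybridisation among chymase probe sets was not tested.

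Of 12 mast cell genes tested, 4 fell and 1 rose, against 1.00% and 0.973% of all genes, with a median log2 change of -0.74 beside -0.01 over all genes. Like the other lists, this one was chosen with earlier results of these data known. The fourth to fall was Srgn, serglycin, the proteoglycan that packs proteases into granules. It had 54, 66.0 and 51.7 in breast-fed pups against 12.4, 17.5 and 19.1, 2.69-fold lower (1.88 to 3.85, adjusted p = 0.00272). Mcpt3 (log2 change -2.30, adjusted p = 0.301) and Cpa3, mast cell carboxypeptidase (-1.11, adjusted p = 0.217), did not pass, although their treated pups lay below all breast-fed pups. The tryptases, also mast cell proteases, did not pass. Tpsb2 had 102, 149 and 85.6 in breast-fed and 239, 183 and 192 in treated pups (log2 change 0.85, adjusted p = 0.0650), and Tpsab1 had a change of 0.13 (adjusted p = 0.836). Summed over 7 mast cell markers measured (Mcpt1, Mcpt4, Cpa3, Tpsab1, Tpsb2, Hdc and Fcer1a), the signal was 987 to 1663 in breast-fed and 347 to 497 in treated pups. The fall of this sum rests on the chymases given above, Mcpt1 (means 891 and 123) and Mcpt4 (240 and 5). Of the 7 markers 4 were lower and 3 higher, and Hdc and Fcer1a were near background in both groups. In whole tissue, fewer cells of a type and less RNA per cell cannot be told apart. Without breast-fed replicate 3 the counts were the same, 4 lower and 1 higher.

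**Figure D2:**
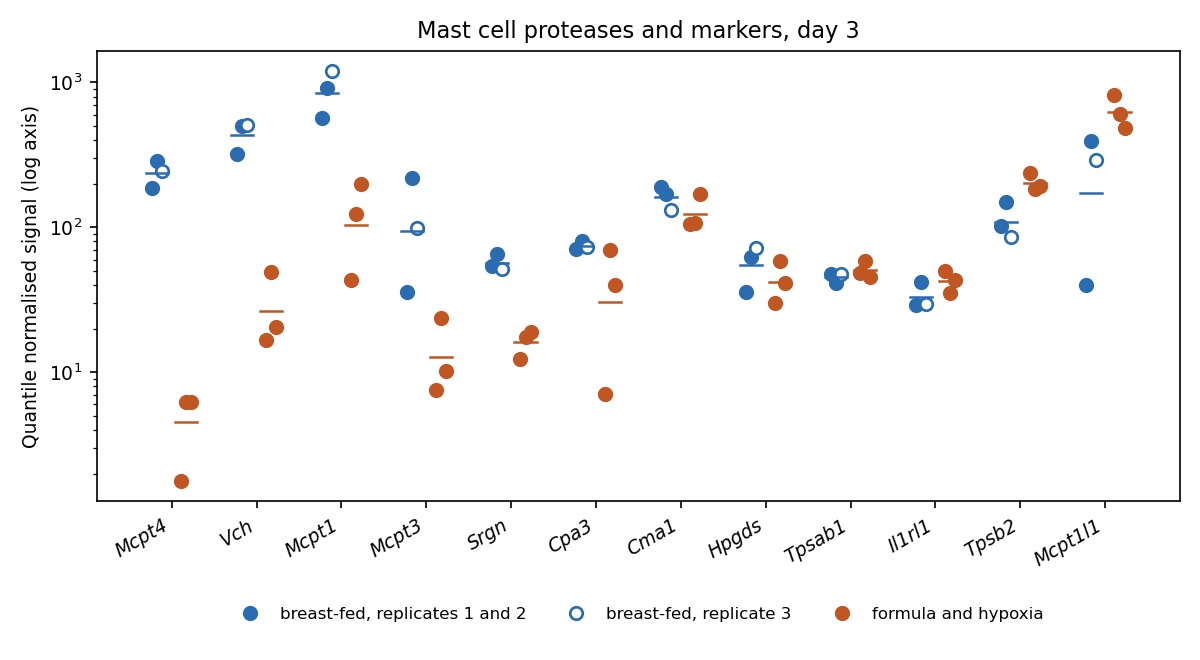
Quantile normalised signal (log axis) of the 12 mast cell genes tested, in each of the 3 breast-fed (blue, replicate 3 open) and 3 treated (orange) day 3 arrays, ordered by log2 change. Lines mark the group means on the log2(signal + 8) scale, and the treated points of Mcpt4, Vch, Mcpt1, Mcpt3, Srgn and Cpa3 all lie below the breast-fed points.

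The chymase genes lie together on chromosome 15. Their starts were compared because neighbouring relatives went in opposite directions. The windows below hold the 250 bases before each gene's start (RefSeq, GRCr8, printed 5′ to 3′ on the gene's strand), with GATAA and its reverse complement TTATC, the core letters read by GATA factors, in capitals. Mcpt4 lies at chr15:33471241-33471490 (+), Vch at chr15:33569491-33569740 (+), Mcpt1 at chr15:33841356-33841605 (+) and Mcpt1l1 at chr15:33876896-33877145 (-).
Mcpt4: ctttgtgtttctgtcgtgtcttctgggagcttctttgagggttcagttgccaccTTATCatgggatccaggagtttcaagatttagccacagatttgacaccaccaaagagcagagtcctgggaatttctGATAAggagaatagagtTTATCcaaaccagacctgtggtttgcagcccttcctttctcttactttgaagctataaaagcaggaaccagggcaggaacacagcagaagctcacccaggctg
Vch: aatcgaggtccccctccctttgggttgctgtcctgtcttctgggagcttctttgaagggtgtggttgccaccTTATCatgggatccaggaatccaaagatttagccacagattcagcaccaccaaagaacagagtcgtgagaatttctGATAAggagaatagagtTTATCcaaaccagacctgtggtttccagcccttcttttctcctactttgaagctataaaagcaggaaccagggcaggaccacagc
Mcpt1: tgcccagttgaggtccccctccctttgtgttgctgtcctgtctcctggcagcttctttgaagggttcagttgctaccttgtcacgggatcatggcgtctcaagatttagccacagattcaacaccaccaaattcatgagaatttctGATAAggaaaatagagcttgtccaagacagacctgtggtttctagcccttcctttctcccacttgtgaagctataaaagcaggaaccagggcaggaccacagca
Mcpt1l1: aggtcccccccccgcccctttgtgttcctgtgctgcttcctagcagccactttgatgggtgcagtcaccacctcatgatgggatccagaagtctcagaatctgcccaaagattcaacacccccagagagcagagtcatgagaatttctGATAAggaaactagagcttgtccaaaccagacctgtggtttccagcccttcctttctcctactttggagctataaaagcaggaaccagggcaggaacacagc
The windows of Mcpt1 and Mcpt1l1 were 77.1% identical over their alignment, and those of Mcpt1 and Vch 83.7%. Mcpt4 and Vch hold 3 GATAA matches each, and Mcpt1 and Mcpt1l1 hold 1 each within the same flanking letters, so the falling and the rising gene share it. Of 11 mast cell genes with a window, 8 hold the motif on either strand, and 4 of the 5 that passed do. Over all 33469 windows of this length, 23.5% hold it. These matches describe letters and were not tested for binding.

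Among the rises, immediate early genes formed the largest group. Of 26 tested, 8 rose and 0 fell, against 0.973% and 1.00% of all genes, with a median log2 change of 0.89 beside -0.01. This list too was chosen with earlier results of these data known. In 11 of the 26 (42.3%) all treated pups lay above all breast-fed pups, against 8.92% of all genes. At an unadjusted p under 0.05, 16 were higher and 0 lower. The median was 0.79 without breast-fed replicate 3, 1.05 with the deposited scaling and 0.77 with a common array median. The number that rose was 3 without breast-fed replicate 3, 2 without formula and hypoxia replicate 1 and 5 without formula and hypoxia replicate 3.

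Fos and Jun encode the partners of the transcription factor AP-1. On the tested Fos probe set with the larger change, breast-fed pups had 82.2, 30.7 and 53.6 and treated pups 426, 215 and 477, which is 6.03-fold higher (3.52 to 10.3, adjusted p = 0.000507). This probe set passed without any 1 of the 6 arrays, and the brighter Fos probe set, at 216, 172 and 145 against 744, 561 and 953 (log2 change 2.02, adjusted p = 0.0109), missed the threshold without breast-fed replicate 3 (0.0656) and without formula and hypoxia replicate 1. Jun had 79.8, 68.9 and 2.05 against 214, 146 and 425, 6.02-fold higher (2.53 to 14.3, adjusted p = 0.0253). The value of 2.05 belongs to breast-fed replicate 3, and without it the log2 change went from 2.59 to 1.58 (adjusted p = 0.192). Junb, another AP-1 gene, had 25.2, 53.5 and 45.1 against 192, 90.1 and 103, 2.72-fold higher (1.81 to 4.08, adjusted p = 0.00764). Its call ended without formula and hypoxia replicate 1 (adjusted p = 0.0864). The second probe sets of Jun and Junb did not pass, at 1.18 and 1.25 (adjusted p = 0.129 and 0.253).

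Egr1, a zinc finger transcription factor, had 181, 119 and 131 in breast-fed and 526, 349 and 1671 in treated pups. The rise of 4.57-fold (2.58 to 8.11, adjusted p = 0.00383) held without any 1 array, and the groups were far apart, with treated replicate 3 the highest. Other Egr1 probe sets disagreed in part, with log2 changes of 1.70 (adjusted p = 0.0828) and -0.26 (adjusted p = 0.758). Zfp36, tristetraprolin, which speeds the decay of cytokine transcripts, had 113, 131 and 113 against 709, 206 and 440, 3.23-fold higher (2.06 to 5.08, adjusted p = 0.00431). It narrowly missed the threshold without formula and hypoxia replicate 1 (adjusted p = 0.0507), and its second probe set gave 1.57 (adjusted p = 0.0555).

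The other 3 genes of the list that rose depended on breast-fed replicate 3. Klf9, a Krüppel-like factor induced by glucocorticoid and thyroid hormones, had 23.4, 29.6 and 2.04 against 159, 78.1 and 163 (log2 change 2.56, adjusted p = 0.00620), and 1.97 without that array (adjusted p = 0.0735). Gadd45a, a growth arrest and DNA damage gene, had 243, 220 and 13.8 against 554, 504 and 612 (2.39, adjusted p = 0.0375), and 1.23 without it (0.258). Nr4a1, an orphan nuclear receptor, had 44.3, 36.8 and 12.5 against 261, 58.9 and 102 (1.79, adjusted p = 0.0372), and 1.37 without it (0.240). Its other probe set gave a larger change, 2.86 (adjusted p = 0.0127), which was 2.24 without it (0.116). The second probe set of Klf9 gave 1.55 (adjusted p = 0.0209; 0.158 without it), and those of Gadd45a gave 1.65 and 0.51 (adjusted p = 0.141 and 0.676). On the first probe set given for each of the 3, the remaining breast-fed pups still lay below all treated pups. Gadd45a also missed the threshold when any 1 treated array was left out, Nr4a1 without breast-fed replicate 2 or formula and hypoxia replicates 1 or 3, and Jun without formula and hypoxia replicates 1 or 3.

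**Figure D3:**
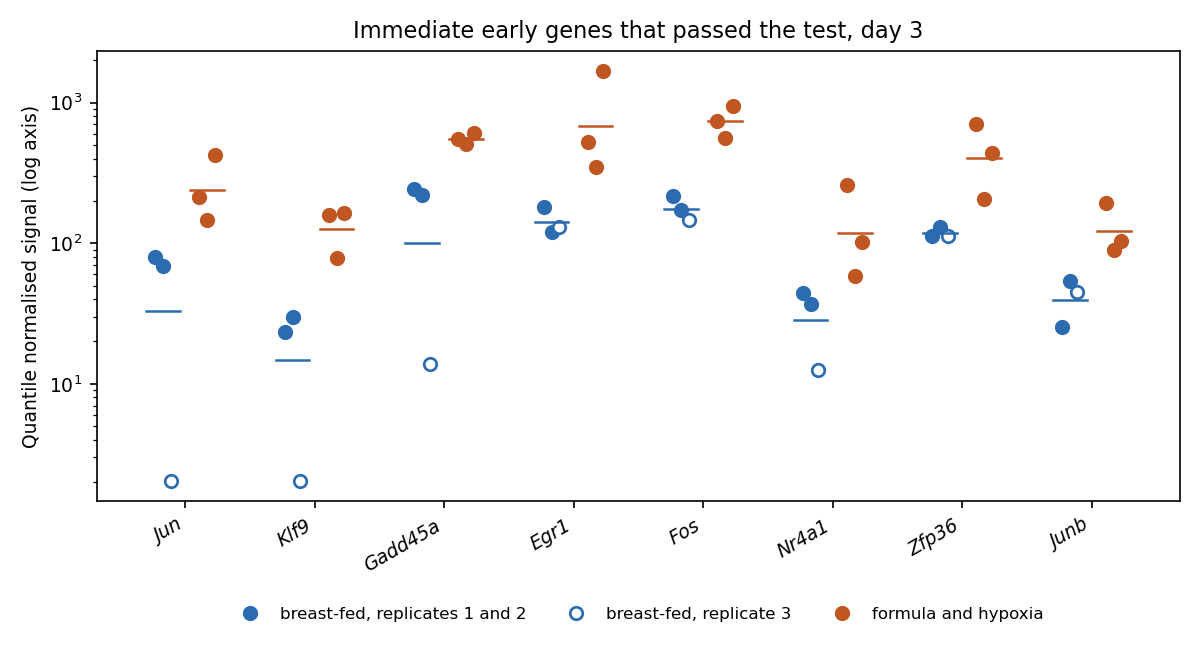
Quantile normalised signal (log axis) of the 8 immediate early genes that passed, in each breast-fed (blue, replicate 3 open) and treated (orange) day 3 array, with lines at the group means on the log2(signal + 8) scale. The open points of Jun, Klf9, Gadd45a and Nr4a1 lie far below the other breast-fed points. Those of Egr1 and Junb lie among them, and those of Fos (the brighter probe set) and Zfp36 lie close below or level with the lowest of them.

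Immediate early genes are known for binding sites of serum response factor and of CREB near their starts, so the starts of 3 members that rose are shown. Capitals mark TGACG (or its reverse complement CGTCA, the core letters of a cyclic AMP response element) and the CArG box, to which serum response factor binds. Windows hold 250 bases before the gene start (RefSeq, GRCr8, 5′ to 3′ on the gene's strand), with Zfp36 at chr1:92799109-92799358 (-), Nr4a1 at chr7:134259888-134260137 (+) and Junb at chr19:40080876-40081125 (+).
Zfp36: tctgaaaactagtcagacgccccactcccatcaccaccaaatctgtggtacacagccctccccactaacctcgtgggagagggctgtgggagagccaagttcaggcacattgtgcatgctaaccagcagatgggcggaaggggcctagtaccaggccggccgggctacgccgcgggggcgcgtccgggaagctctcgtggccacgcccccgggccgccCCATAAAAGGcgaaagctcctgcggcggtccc
Nr4a1: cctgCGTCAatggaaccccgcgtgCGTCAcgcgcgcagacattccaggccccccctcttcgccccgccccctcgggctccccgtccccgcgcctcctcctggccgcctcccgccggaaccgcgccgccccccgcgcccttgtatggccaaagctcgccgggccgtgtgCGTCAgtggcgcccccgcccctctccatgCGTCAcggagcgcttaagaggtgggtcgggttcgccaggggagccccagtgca
Junb: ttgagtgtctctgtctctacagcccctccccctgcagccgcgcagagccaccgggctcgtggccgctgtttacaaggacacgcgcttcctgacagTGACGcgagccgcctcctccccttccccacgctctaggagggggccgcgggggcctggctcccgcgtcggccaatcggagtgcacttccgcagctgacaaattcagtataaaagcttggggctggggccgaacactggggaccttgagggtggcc
Zfp36 has 1 CArG box and no TGACG in this window, Nr4a1 has 4 TGACG matches, and Junb has 1. Windows were found for 6 of the 8 genes that rose, of which 5 hold TGACG and 2 a CArG box. Over the 18 tested members with a window the numbers were 11 and 4. Over all 33469 windows, 18.2% hold TGACG and 1.5% a CArG box, counted on both strands. No test of these counts was made.

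Enzymes and carriers of sterols, bile acids and foreign compounds were the next group of rises. Cyp3a9, a cytochrome P450 of the family that hydroxylates steroids and drugs, had 108, 69.5 and 45.7 in breast-fed and 408, 350 and 1377 in treated pups, 7.54-fold higher (3.41 to 16.7, adjusted p = 0.00540). Cyp27a1, the mitochondrial sterol 27-hydroxylase that begins the acidic route of bile acid synthesis, had 160, 125 and 41.9 against 502, 642 and 875, 6.41-fold higher (3.69 to 11.1, adjusted p = 0.000507). Its second probe set gave a log2 change of 2.44 (adjusted p = 0.0112). Both genes passed without any 1 array, and they were the 2 of 21 P450 genes tested that rose (0.973% of all genes did), with 0 lower and a list median of 0.20.

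Gstp1, a glutathione transferase, had 1631, 2087 and 77.0 against 4711, 4814 and 4537. The low value is that of breast-fed replicate 3, where this probe set was among those lost. The log2 change of 2.82 (adjusted p = 0.0264) became 1.34 without that array (adjusted p = 0.0409), close to the 1.47 of the gene's other probe set (adjusted p = 0.00211). It did not pass when any 1 of the treated arrays was left out, with adjusted p up to 0.107. Abcc2, an export pump for conjugated bile acids and drugs, had 483, 288 and 54.4 against 953, 985 and 603 (log2 change 2.0, adjusted p = 0.0366), and 1.13 without breast-fed replicate 3 (adjusted p = 0.249), and it also missed the threshold without formula and hypoxia replicates 1 or 2. These 2 and Cyp27a1 were the members that rose among 11 tested on the bile acid list (0.973% of all genes did), with 0 lower and a median of 0.09. Gstp1 was placed on this list and also on that of antioxidant and phase II enzymes. At an unadjusted p under 0.05 in limma, 5 of the 11 were higher and 2 lower. All treated pups lay above all breast-fed pups in 4 (36.4%, against 8.92% of all genes) and below in 2 (18.2%, against 10.4%).

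Fabp6 had probe sets in conflict. The brighter, at 1005, 1044 and 417 against 1565, 1187 and 1210, had a log2 change of 0.78 (adjusted p = 0.274), and the dimmer, at 385, 131 and 22.7 against 6.37, 15.3 and 22.6, fell by 2.45 (adjusted p = 0.0375). Without breast-fed replicates 1 or 2 or formula and hypoxia replicates 1 or 2 the dimmer did not pass (adjusted p up to 0.184). No direction is given for this gene, since its probe sets went opposite ways. Hmox1, heme oxygenase, had 789, 544 and 481 against 3048, 1761 and 2280, with all treated pups above all breast-fed pups, and a log2 change of 1.95 that did not pass (adjusted p = 0.101). Its other probe set gave 2.46 (adjusted p = 0.20).

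Genes of the epithelium and of growth control were also among the named rises. Cldn3, a tight junction claudin, had 228, 224 and 36.1 against 840, 620 and 556, 4.99-fold higher (2.64 to 9.42, adjusted p = 0.00565). Its log2 change was 2.32, and 1.52 without breast-fed replicate 3 (adjusted p = 0.0313), and another probe set gave 1.04 (adjusted p = 0.184). It was 1 of 20 junction genes that passed (0.973% of all genes rose), with 0 lower. The list had a median of 0.49, which was 0.44 without that array and 0.15 with a common array median. In 6 of the 20 all treated pups lay above all breast-fed pups (30%, against 8.92% of all genes), among them the tight junction genes Ocln (log2 change 0.78, adjusted p = 0.341) and Tjp1 (0.86, adjusted p = 0.289).

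Emp1, an epithelial membrane protein, had 95.1, 52.5 and 112 against 492, 486 and 277, 4.55-fold higher (2.73 to 7.57, adjusted p = 0.00152). Ptprr, a phosphatase that acts on MAP kinases, had 56.6, 37.3 and 26.1 against 171, 222 and 212, 4.49-fold higher (2.77 to 7.29, adjusted p = 0.000896). LOC102549726 had 167, 210 and 189 against 366, 666 and 701, 2.87-fold higher (1.83 to 4.52, adjusted p = 0.0112). A second LOC102549726 probe set gave a log2 change of 1.21 (adjusted p = 0.0375; 0.159 without breast-fed replicate 3). These 3 genes, on the probe sets given, passed without any 1 array and had no overlap between the groups.

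Smaller rises were less stable. Cebpd, a transcription factor of the acute phase response, had 21.4, 39.6 and 47.2 against 162, 82.4 and 106 (2.84-fold, adjusted p = 0.0224). A brighter Cebpd probe set gave a log2 change of 0.48 (adjusted p = 0.444), and the call ended without breast-fed replicate 1 or formula and hypoxia replicate 1 (adjusted p up to 0.127). Enpp1, an ectoenzyme that makes pyrophosphate, had 10.3, 19.6 and 56.0 against 115, 106 and 57.5 (3.06-fold, adjusted p = 0.0233), and Wdr62, a mitotic spindle protein, 14.3, 14.8 and 40.6 against 72.3, 85.6 and 91.8 (3.12-fold, adjusted p = 0.0495). Enpp1 did not pass without breast-fed replicates 1 or 2 or formula and hypoxia replicates 1 or 2 (adjusted p up to 0.127), and Wdr62 passed only without breast-fed replicate 3 (adjusted p up to 0.137 without any other array). In Enpp1 the highest breast-fed and the lowest treated pup nearly met.

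Signals to and from the epidermal growth factor receptor and the immune system gave 4 more named genes, and each of them lost its call without breast-fed replicate 3. Areg, amphiregulin, a ligand of that receptor, had 54.9, 71.8 and 48.6 against 150, 187 and 687 (log2 change 2.08, adjusted p = 0.0210; 0.0985 without). It was 1 of 9 genes of this system that passed (0.973% of all genes rose). Lgals3, galectin-3, had 1387, 1095 and 1318 against 4628, 3494 and 4655 (1.74, adjusted p = 0.0331; 0.110 without). Plaur, the urokinase receptor, had 65.5, 116 and 97.3 against 273, 172 and 262 (1.28, adjusted p = 0.0375; 0.116 without). Coro1a, an actin-binding protein of leukocytes, went down, from 141, 215 and 284 to 15.5, 82.3 and 97.4 (-1.81, adjusted p = 0.0337; 0.176 without). None of the 4 had overlapping groups, and their changes without that array were 1.97, 1.77, 1.33 and -1.59. Calls also ended without formula and hypoxia replicate 3 for Areg, Lgals3 and Plaur, without formula and hypoxia replicate 1 for Lgals3, Plaur and Coro1a, without breast-fed replicate 1 for Plaur, and without breast-fed replicate 2 for Lgals3 and Coro1a, with adjusted p up to 0.235. Ralgds, an exchange factor that links Ras to Ral, was also named because its rise shrank without breast-fed replicate 3, from 1.5 (adjusted p = 0.0372) to 0.85 (0.267), and it missed the threshold without formula and hypoxia replicates 1 or 3. Its signals were 235, 274 and 60.3 against 640, 388 and 407, and its other probe set gave 1.01 (adjusted p = 0.264).

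Other named falls were of genes with varied roles. Dio1, the type 1 deiodinase that converts thyroxine to the active hormone, had 292, 209 and 374 in breast-fed and 27.3, 89.0 and 11.1 in treated pups, 7.24-fold lower (3.84 to 13.6, adjusted p = 0.000896). A dimmer Dio1 probe set gave a log2 change of -1.5 (adjusted p = 0.151). Tcf21, a mesenchymal transcription factor, had 123, 242 and 236 against 20.5, 14.9 and 19.8, 7.61-fold lower (3.83 to 15.1, adjusted p = 0.00152). Ccl11, eotaxin, which attracts eosinophils, had 80.6, 112 and 96.3 against 2.50, 24.4 and 1.17. Its fold of 7.09 lower (3.40 to 14.8, adjusted p = 0.00383) rests in part on the treated values of 2.50 and 1.17, which lie below the pseudocount. The log2 change of -2.83 ran from -3.76 to -1.67 between pseudocounts of 2 and 32. Serpinb9, an inhibitor of granzyme B, had 87.1, 58.3 and 60.8 against 6.14, 5.76 and 12.6, 4.76-fold lower (2.62 to 8.65, adjusted p = 0.00431), again with treated values near the pseudocount. All 4 passed without any 1 array.

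Tnnt2, the cardiac type of troponin T, had 476, 459 and 597 against 97.4, 223 and 90.8, 3.84-fold lower (2.36 to 6.26, adjusted p = 0.00272). Ykt6, a SNARE protein of vesicle fusion, had 37.8, 85.7 and 95 against 10.6, 7.94 and 24.8, 3.57-fold lower (2.26 to 5.62, adjusted p = 0.00269). B3galt5, a galactosyltransferase, had 80.3, 54.6 and 67.6 against 20.6, 8.02 and 33.9, 2.79-fold lower (1.83 to 4.27, adjusted p = 0.00817). In all 3 the groups stayed apart, and each call held without any 1 array.

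For Hspa5, the main chaperone of the endoplasmic reticulum, the probe sets disagreed in size. The dimmer, at 358, 230 and 319 against 33.2, 93.5 and 45.8, was 5.02-fold lower (2.74 to 9.20, adjusted p = 0.00383), and the brighter had a log2 change of -0.45 (adjusted p = 0.713). Ppil3, a peptidyl-prolyl isomerase, had 149, 191 and 170 against 19.5, 16.6 and 66.1, 4.81-fold lower (2.53 to 9.15, adjusted p = 0.00764), and its other probe set gave -1.66 (adjusted p = 0.0243). It missed the threshold without formula and hypoxia replicate 1 (adjusted p = 0.0594). Of 24 endoplasmic reticulum genes tested on their brightest probe set, 0 passed in limma (2 higher and 2 lower at an unadjusted p under 0.05), with a median of -0.20.

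Few cell division and protein turnover genes passed. Those given here were lower, while Wdr62, given above, was higher. Ccnb1, cyclin B1, had 125, 89.5 and 139 against 35.9, 36.3 and 62.8, 2.40-fold lower (1.72 to 3.36, adjusted p = 0.00431), while its brighter probe set gave a log2 change of -0.56 (adjusted p = 0.480). Bub1b, a mitotic checkpoint kinase, had 68.0, 51.9 and 94.9 against 32.1, 18.8 and 44.4 (-1.02, adjusted p = 0.0488; 0.278 without breast-fed replicate 3). It was 1 of 31 cell cycle genes lower on their brightest probe set (1.00% of all genes were), with 0 higher and a median of -0.30. In 6 of the 31 (19.4%) all treated pups lay below all breast-fed pups, against 10.4% of all genes. With the deposited scaling that median was -0.05. Bub1b also missed the threshold without breast-fed replicate 1 or formula and hypoxia replicates 1 or 2.

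The proteasome and ubiquitin list holds subunits of the main protein-degrading complex of the cell and genes that attach or remove its ubiquitin tag. It had 1 of 25 lower and 0 higher, against 1.00% and 0.973% of all genes. In 10 of the 25 (40%) all treated pups lay below all breast-fed pups, against 10.4% of all genes, and in 0 did they lie above. At an unadjusted p under 0.05, 10 were lower and 0 higher. The median was -0.40, and -0.54 without breast-fed replicate 3, -0.53 with the deposited scaling and -0.83 with a common array median. Psma4, a core subunit, had 656, 726 and 793 against 285, 302 and 453 (log2 change -1.07, adjusted p = 0.0244; 0.116 without breast-fed replicate 3, and up to 0.127 without breast-fed replicate 2 or formula and hypoxia replicates 1 or 2). Among the others were the ATPase subunits Psmc2 (-1.01, adjusted p = 0.0741), Psmc4 (-1.11, adjusted p = 0.0972) and Psmc5 (-1.18, adjusted p = 0.0800), which did not pass.

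Cholesterol synthesis had 1 of 16 lower and 0 higher, against 1.00% and 0.973% of all genes, with a median of -0.34. This was Hsd17b7, a reductase of the pathway, at 66.0, 62.5 and 66.7 against 17.2, 31.1 and 33.7 (-1.08, adjusted p = 0.0302; 0.124 without breast-fed replicate 3, and up to 0.182 without another breast-fed array or formula and hypoxia replicate 1). In 5 of the 16 (31.3%, against 10.4% of all genes) all treated pups were below all breast-fed pups, among them the isomerase gene Idi1 (-0.54, adjusted p = 0.597).

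In glucose metabolism the called genes went in both directions. Pck1, the enzyme that commits carbon to gluconeogenesis, had 41.2, 94.9 and 8.45 in breast-fed and 827, 187 and 516 in treated pups, 10.1-fold higher (2.87 to 35.4, adjusted p = 0.0493). Gpt, alanine aminotransferase, had 54, 35.6 and 10.5 against 134, 121 and 238 (log2 change 2.17, adjusted p = 0.0232). Fbp1, fructose bisphosphatase, a later enzyme of gluconeogenesis, fell from 254, 310 and 300 to 80.7, 48.1 and 184 (-1.58, adjusted p = 0.0498). The rises of Pck1 and Gpt stood at 2.63 and 1.67 without breast-fed replicate 3, and none of the 3 passed then (adjusted p = 0.276, 0.159 and 0.162) or without formula and hypoxia replicate 1. Pck1 also missed the threshold without breast-fed replicate 1 or formula and hypoxia replicate 3, Gpt without the latter, and Fbp1 without breast-fed replicates 1 or 2 or formula and hypoxia replicate 2. Of 14 genes tested in this list 2 were higher and 1 lower, against 0.973% and 1.00% of all genes, with a median of 0.10.

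Among red cell genes, 1 rose. Hbb-b1, a beta globin gene, had 4260, 3031 and 3678 against 6081, 8063 and 5140, 1.74-fold higher (1.29 to 2.35, adjusted p = 0.0446; 0.135 without breast-fed replicate 3, and up to 0.145 without breast-fed replicate 2 or formula and hypoxia replicates 1 or 2). Its probe set carries the maker's suffix for sequence families. It was 1 of 12 that passed (0.973% of all genes rose), with 0 lower and a median of 0.40. In 5 of the 12 (41.7%, against 8.92% of all genes) all treated pups lay above all breast-fed pups. These included Alas2, which starts heme synthesis in erythroid cells (0.96, adjusted p = 0.114), and Hbg1 (1.48, adjusted p = 0.0770). In 1 of the 12 (8.33%, against 10.4% of all genes) all treated pups lay below. At an unadjusted p under 0.05 in limma, 4 were higher and 2 lower. Summed over 4 red cell markers (Hbb, Hbb-b1, Alas2 and Slc4a1) the signal was 7705 to 10279 in breast-fed and 12315 to 17871 in treated pups. Most of this sum is globin, with means of 5476 and 8255 for Hbb and 3657 and 6428 for Hbb-b1. Sums over enteroendocrine markers ran the other way, at 2258 to 2512 against 1219 to 1934 for 8 markers measured, 6 of them lower and 0 passing. The sum rests on a few bright hormones, and the longer list of enteroendocrine hormones and granins had 10 of 15 genes above 0 and a median of 0.20, with 0 passing in limma (2 higher and 0 lower at an unadjusted p under 0.05). Their part in the other results was not tested. The sums for enterocytes (11444 to 18607 against 12575 to 21131), smooth muscle, fibroblasts, macrophages and granulocytes, lymphocytes and the other marker sets overlapped between the groups.

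The hypoxia response list, which holds targets of hypoxia-inducible factor and glycolytic enzymes, had 0 of 29 genes that passed in limma (1 higher and 0 lower at an unadjusted p under 0.05), with a median of 0.18. Its members included the glucose transporter gene Slc2a1 (0.47, adjusted p = 0.674), the hexokinase gene Hk2 (0.06, adjusted p = 0.935) and Vegfa, vascular endothelial growth factor, at 86.0, 124 and 127 against 85.8, 47.3 and 84.1 (-0.60, adjusted p = 0.463). Another Vegfa probe set went the other way, at 0.98 (adjusted p = 0.395). In 3 of the 29 (10.3%) all treated pups lay above all breast-fed pups, close to the 8.92% of all genes. Of 45 antioxidant and phase II genes, 1 was higher, Gstp1 (0.973% of all genes rose), with a median of 0.32 that was 0.10 without breast-fed replicate 3.

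The lists as a whole held 790 genes tested, of which 20 rose and 13 fell, against 0.973% and 1.00% of all genes. Since the lists were chosen with earlier results of these data known, no excess is read from these counts. List medians that depended most on breast-fed replicate 3 were those of oxidative phosphorylation, 0.03 with the array and -0.51 without it over 29 genes, and of heat shock proteins, 0.05 and -0.44 over 16 genes. In limma 0 genes of either list passed. At an unadjusted p under 0.05 there were 0 higher and 3 lower in the first and 2 higher and 3 lower in the second. Of their probe sets, 9 of 29 and 1 of 16 were among the 69 that this array had lost. The medians of the mast cell, proteasome and ubiquitin, cholesterol and cell cycle lists were below 0 with and without it, and those of the immediate early and junction lists above 0.

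**Figure D4:**
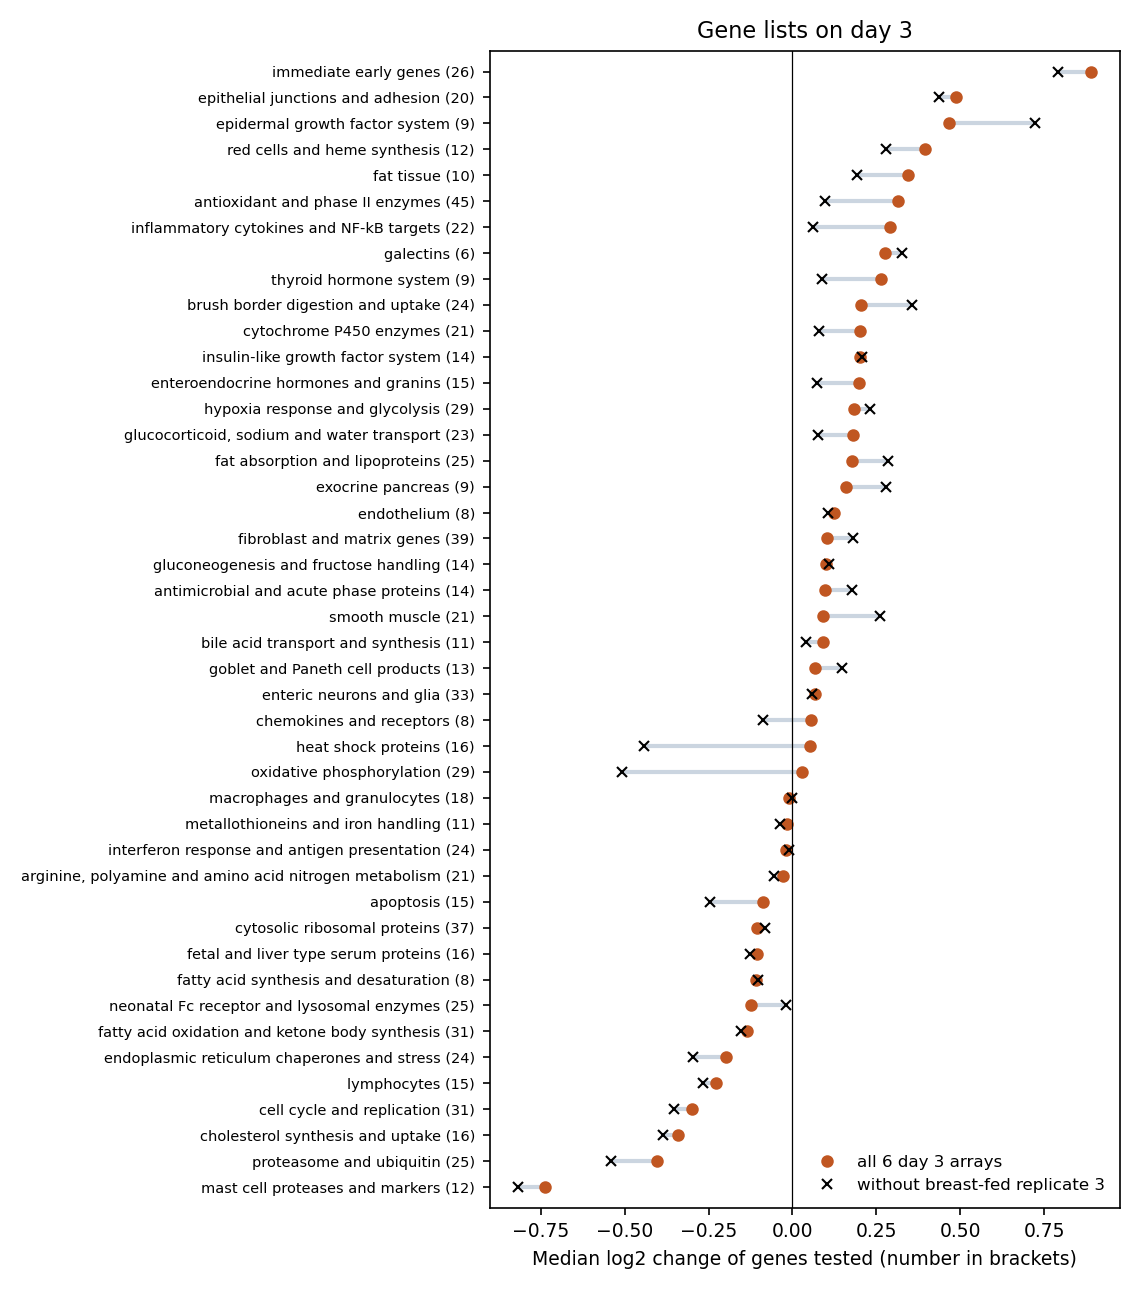
Median log2 change of formula and hypoxia against breast feeding on day 3 over the tested genes of each of 44 lists, with all 6 day 3 arrays (orange points) and without breast-fed replicate 3 (crosses). The immediate early list is highest at 0.89, the mast cell list lowest at -0.74, and the heat shock and oxidative phosphorylation lists shift most between points and crosses.

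Genes often studied in this disease mostly did not pass. Of 23 such genes chosen for prior interest, 15 had a signal high enough to be tested, and Areg was the member that passed on its brightest probe set. Dimmer probe sets of Fabp6, given above, and of Casp1, given below, also passed. The interleukin gene Il1b had 79.1, 86.2 and 48.1 against 74.8, 89.2 and 54.3 (log2 change 0.04, adjusted p = 0.964). Il18, an interleukin implicated in this model, had 561, 542 and 363 against 603, 264 and 790 (0.06, adjusted p = 0.957). Its other probe set gave 1.80 (adjusted p = 0.155), and 0.41 without breast-fed replicate 3 (0.669). Both groups overlapped widely for these cytokines. Nos2, inducible nitric oxide synthase, had 128, 147 and 153 against 24.7, 139 and 25.4 (-1.47, adjusted p = 0.317), with treated replicate 2 among the breast-fed values, and its other probe set gave -0.06 (adjusted p = 0.943).

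Casp1, the protease that matures Il1b and Il18, had 2377, 1875 and 3016 against 399, 1526 and 702 (-1.65, adjusted p = 0.0846). Another Casp1 probe set passed at -1.40 (adjusted p = 0.0375; 0.111 without breast-fed replicate 3), and the remaining one gave -1.82 (adjusted p = 0.0699). Nfkbia, the inhibitor of NF-kB, had 147, 152 and 77.0 against 201, 372 and 332 (1.23, adjusted p = 0.189), and Lcn2, lipocalin 2, 237, 168 and 360 against 274, 608 and 666 (0.96, adjusted p = 0.335). The goblet cell genes Muc2, the main secreted mucin, and Tff3, trefoil factor 3, had changes of -0.11 (adjusted p = 0.946) and -0.36 (adjusted p = 0.608). Those of Reg3b, an antimicrobial lectin, Fabp2 and Il10 were -0.16, 0.07 and 0.44, and none of them passed (adjusted p = 0.929, 0.918 and 0.539).

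The day 3 pattern was set against the other days, whose arrays are separate from those of day 3 but share each probe set's estimate of spread. The same regimens differed in 1 probe set on day 1 (0.0191%), 59 on day 2 (1.13%) and 86 on day 4 (1.64%). Of the 97 of day 3, 0 also passed on day 1, 21 on day 2 (21.6% of the day 3 set and 35.6% of the day 2 set) and 28 on day 4 (28.9% and 32.6%), and 15 passed on days 2, 3 and 4. The sign was the same for 74 on day 1, 83 on day 2 and 94 on day 4, beside 56.9%, 56.7% and 68.5% of all probe sets. Breast-fed replicate 2 of day 4 had also lost probe sets, 48 of 757 abundant ones. The breast-fed arrays of day 4 all belong to the later run, as does breast-fed replicate 3 of day 3. Agreement with day 4 was not recomputed without these arrays, and their part in it was not tested.

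The difference between the day 3 effect and the mean of the other days was tested directly, and 1 of 5244 probe sets passed (0.0191%), with 358 (6.83%) at an unadjusted p under 0.05. None of the 97 was the one that passed, and the lowest adjusted p among the 97 was 0.0649. Mcpt4 had log2 changes of -1.78, -3.07, -4.28 and -3.18 on days 1 to 4, Vch -2.54, -3.01, -3.69 and -3.11, and Dio1 -0.57, -2.09, -2.86 and -3.23. These falls, and the rises of Cyp3a9 (0.51, 1.97, 2.92 and 3.56) and Cyp27a1 (1.13, 2.13, 2.68 and 1.70), had the same sign on every day. Egr1 had 0.46, 0.10, 2.19 and 0.32, and the tested Fos probe set with the larger change 0.00, -0.25, 2.59 and 1.25, but their differences from the other days did not pass (adjusted p = 0.331 and 0.0649). Pck1 changed sign, with -1.97 on day 1, -2.44 on day 2, 3.33 on day 3 and 0.00 on day 4, and its difference of 4.80 did not pass either (adjusted p = 0.141).

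**Figure D5:**
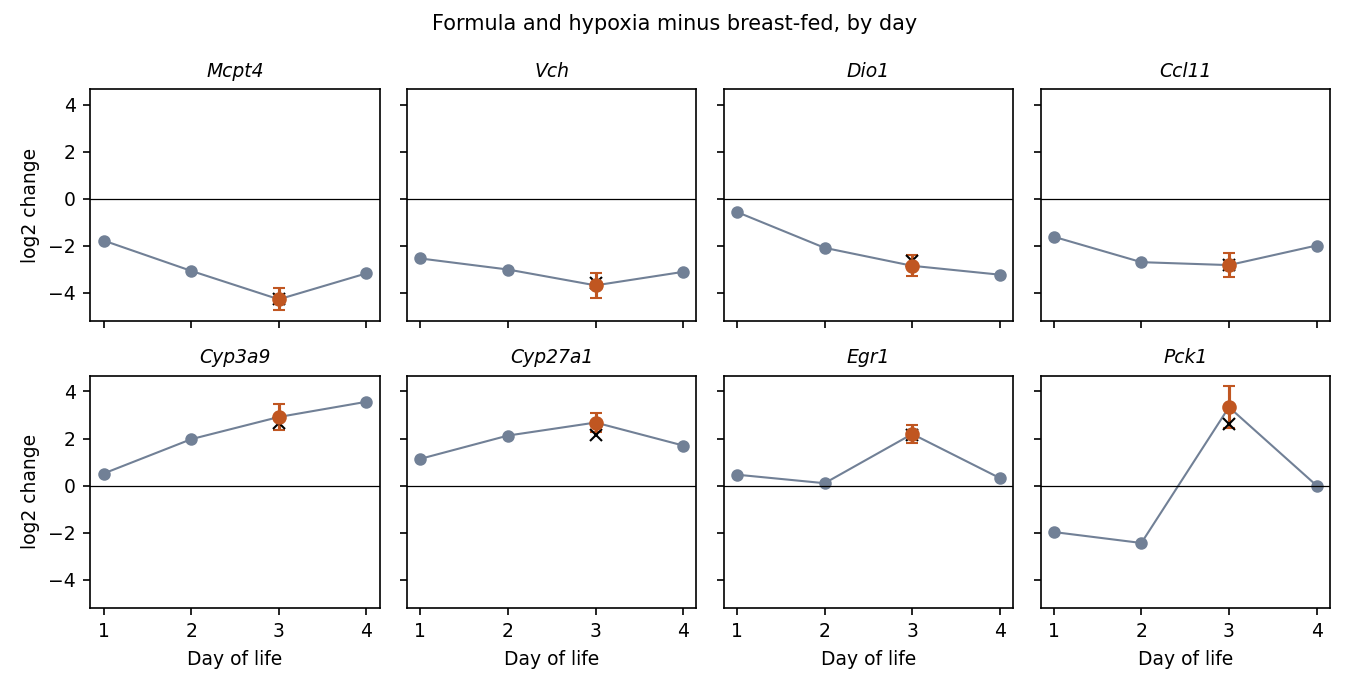
Log2 change of formula and hypoxia against breast feeding on days 1 to 4 for 8 named genes (3 arrays per group and day). Day 3 is orange with its standard error and the cross is the day 3 value without breast-fed replicate 3. Mcpt4, Vch, Dio1 and Ccl11 lie below 0 and Cyp3a9 and Cyp27a1 above 0 on every day, while Egr1 is near 0 except on day 3 and Pck1 lies below 0 on days 1 and 2.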

How the data were processed

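Total RNA of the terminal ileum of 28 rat pups in 9 groups was hybridised to single arrays, per the labels. The deposited values are probe set intensities on a linear scale as the authors made them, with a trimmed mean of 150.3 to 150.4 on each day 3 array. No source used here gives the summary software or background correction. Of 8799 probe sets, 59 controls were left out. The platform annotation, which can be old, gave 1 symbol for 7006, several for 308 and none for 1426.

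Intensities were quantile normalised, a pseudocount of 8 was added, and probe sets with a mean log2 value above the 40th percentile (a signal of 24.0) were tested. Limma 3.58.1 in R 4.3.3 fitted 1 mean per group to all 28 arrays, with an intensity trend, two-sided tests and Benjamini-Hochberg adjustment over 5244 probe sets (threshold 0.05). Fold changes are on the log2(signal + 8) scale, and intervals are 95%. For gene lists the probe set with the highest mean stood for its gene. With 3 arrays per group, their number limits the precision. The code was tested on simulated data with known changes. Sequences are from RefSeq (GRCr8), aligned with Biopython 1.88.

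Genes were named by a rule: the 15 largest rises and falls that passed with and without breast-fed replicate 3 (mean signal of at least 50), list members that passed, up to 5 genes that lost most without that array, and 23 genes of prior interest. This comparison, its genes and its lists were chosen with earlier results of these data known. Day 3 same-numbered arrays of the 2 groups did not deviate together, so the numbers were not used as pairs. Alternatives were other pseudocounts, filters and scalings, array weights, batch terms and leaving out arrays.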

Additional observations from a re-analysis of the deposited data

Results flagged for a closer look

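The day 3 effect of probe set E00717UTR#1_s_at, for which the annotation gives no gene symbol, differed from the mean effect of days 1, 2 and 4 by -1.98 on the log2 scale (SE 0.31, limma adjusted p = 0.00550), in a test of the difference itself. On day 1 its mean signal was 60.8 in breast-fed and 455 in formula and hypoxia pups, and on day 2 it was 76.0 and 695. On day 3 the means were 57.1 and 55.1, and on day 4 they were 46.8 and 50.7. The log2 changes on days 1 to 4 were 2.75, 3.03, -0.03 and 0.07. Day 4 was thus like day 3, and the difference came from the rises on days 1 and 2. With the deposited scaling this difference did not pass, and limma called 0 probe sets in the contrast (341 at an unadjusted p under 0.05).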

How the results depend on the processing

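The 48 named probe sets that passed kept their direction under all 23 alternatives that tested them, and Mcpt4 was the one that passed under each. Against 97 changed probe sets, there were 38 without the 2 arrays with most lost probe sets, 61 with a 60th percentile filter, 40 with the accession run as a term, 37 in accession run 1 alone (without breast-fed replicate 3, the day 3 array of run 2), 63 with 1 test per gene, and 3 in a fit to the 6 day 3 arrays alone, which has fewer arrays for the spread (505 at an unadjusted p under 0.05). With the lost values of breast-fed replicate 3 of day 3 (69) and breast-fed replicate 2 of day 4 (48) set to missing there were 103. Chosen after seeing the data, the number format of the deposited values as a term, which breast-fed replicates 2 and 3 share, gave 28, and leaving out both of these arrays gave 8. Leaving out 1 array gave 30 to 110. Same-numbered arrays shared only a number (correlations of deviations -0.01, 0.03 and -0.14), and a replicate block gave 59.

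Against 33 list genes that passed, these counts were 18 without both arrays, 3 with the 6 arrays alone, 18 with the run as a term, 21 in run 1 alone, 13 with the number format and 4 without breast-fed replicates 2 and 3, and 14 to 36 when 1 array was left out. For the difference from the other days (1 probe set) they were 2 without both arrays, 3 with a pseudocount of 32, 2 with a 60th percentile filter, 7 with array weights, 4 without breast-fed replicates 2 and 3, and 1 to 9 when 1 array was left out. With the deposited scaling and with 1 test per gene limma called 0, with 341 and 235 at an unadjusted p under 0.05.

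Signs turned for 5 genes that did not pass. Without both arrays, in run 1 alone, and without breast-fed replicates 2 and 3, Il18 was -0.13, -0.13 and -0.16 and Il1b -0.19, -0.19 and -0.13. With a common median Il18 was -0.27, Il1b -0.0081 and Fabp2 -0.29. With array weights Il1b was -0.30 and Reg3b 0.31. Il1b was -0.011 with the run as a term, and Reg3b was 0.0067 with the deposited scaling and 0.11 without breast-fed replicates 2 and 3. When 1 array was left out, Muc2 ran from -0.29 to 0.12, Il18 from -0.26 to 0.52, Il1b from -0.19 to 0.22 and Reg3b from -0.76 to 0.91. The causes were not tested. With 3 pups per group and a median standard error of 0.33, changes well under 2-fold were rarely called, and signals near the pseudocount of 8 give folds that it sets.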
